A study of Mus musculus with 15 samples.

Results

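The response that large muscle sensory neurons might share after injection of complete Freund's adjuvant (CFA) or of acid into the muscle was described by comparing 6 treated arrays, pooled, with 3 saline arrays. These 9 arrays were taken by their titles from a series of 15 arrays, and 19938 genes were tested, each through its brightest probe set over the 15 arrays. Among them, 12953 genes (65.0%) differed from saline in the same direction after CFA and after acid, 6558 being higher in both and 6395 lower in both, while 6985 had opposite signs. Both differences are taken against the same 3 saline arrays, so their signs are not independent, and the share was not tested. No gene passed the threshold in the pooled comparison, so the values below are differences in level with their errors.

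The neurons came from the dorsal root ganglia of lumbar levels 2 to 5 of C57BL/6 mice with a transgene in which the CGRP promoter (calcitonin gene-related peptide) drives green fluorescent protein. All 3 muscle groups held neurons over 26.9 µm that lacked the fluorescent protein and carried a wheat germ agglutinin tracer, injected 5 days before death into the gastrocnemius muscle or the saphenous nerve. They came from mice given CFA in muscle (CFA muscle, 3 arrays), acid in muscle (acid muscle, 3 arrays) or saline in muscle (saline muscle, 3 arrays, the study's control). CGRP-positive skin neurons after CFA (CFA paw, 3 arrays) or saline (saline paw, 3 arrays) in the paw are used only to set the muscle response beside another one. The labels give no dose, no time between injection and collection, and no age or sex. They call the replicates biological and do not say whether a replicate is 1 animal or a pool, and the fluorescent reporter marks CGRP cells by its promoter and not by the peptide itself.

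Muscle afferents report stretch, contraction, pressure and the chemical state of the muscle, and many of the large ones are myelinated. CFA, killed mycobacteria in oil, sets up a local inflammation, and acid is sensed by acid-gated channels and is widely used to produce muscle pain with little tissue damage. After inflammation or nerve damage, sensory neurons are known to alter channels, peptides, trophic receptors and regeneration genes, and the stated interest of the study is in mechanosensitive proteins of myelinated afferents.

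The muscle arrays were alike in overall level and differed in spread. Their medians ran from 2.77 to 2.92 on the log2 scale, their pairwise correlations over genes ran from 0.951 to 0.983, and no pair held identical values. Acid muscle replicate 2 and saline muscle replicate 3 stood apart from the rest on the first principal component, which held 31.7% of the variance. They lay there at −42.9 and −23.4, CFA muscle replicate 1 at −9.67 and the other 6 arrays at 8.49 to 20.4. On the second component acid muscle replicate 3 lay furthest out, at 31.3. Saline muscle replicate 3 lay there at 17.2 and the remaining arrays at −12.6 to −3.15. Acid muscle replicate 3 was kept where both arrays that stood apart were left out. A further irregularity concerned CFA muscle replicates 2 and 3. Xist, the RNA that coats the inactive X chromosome in female cells, stood at 3.29 and 3.35 there and at 1.40 to 1.93 on the other 7 muscle arrays. On the same pair of arrays Igf2, a growth factor, stood at 5.70 and 6.27 against 2.75 to 4.15 elsewhere, and Cym, the gastric protease chymosin, at 6.50 and 7.11 against 2.80 to 4.53. The labels do not give the sex of the mice, and whether these arrays held other cells or animals was not tested. These 3 genes were chosen after their values were seen.

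The labelled cell type was checked on marker lists. The mean log2 level of 13 sensory neuron identity genes lay at 6.58 to 7.55 on the 9 arrays. Neurofilament heavy chain, Nefh, typical of large neurons, lay at 8.83 to 9.76, and parvalbumin, Pvalb, typical of proprioceptors, at 3.93 to 5.74. The mean of 26 muscle afferent and proprioceptor genes was 4.94 to 5.75. Markers of other sensory neurons were also above background. The mean of 21 non-peptidergic and itch neuron genes was 4.45 to 5.22 and that of 8 low-threshold C-fibre genes 4.53 to 5.01. How pure the sort to large neurons was cannot be read from these levels. Calcb, which encodes a second CGRP peptide, lay at 5.58 to 6.25 on arrays of neurons sorted as CGRP-negative, while the gene behind the reporter was not analysed here. Glial genes were also well above background. The mean of 17 Schwann cell and myelin genes was 4.66 to 5.90 and that of 14 satellite glia genes 5.30 to 5.98. Macrophage genes were at 2.25 to 2.40, under the limit of 2.49 below which a gene was called dim, a limit set so that 95% of 1190 olfactory and vomeronasal receptor genes had a lower mean. In such bulk material, fewer cells of a type and less RNA per cell cannot be told apart.

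**Figure D1:**
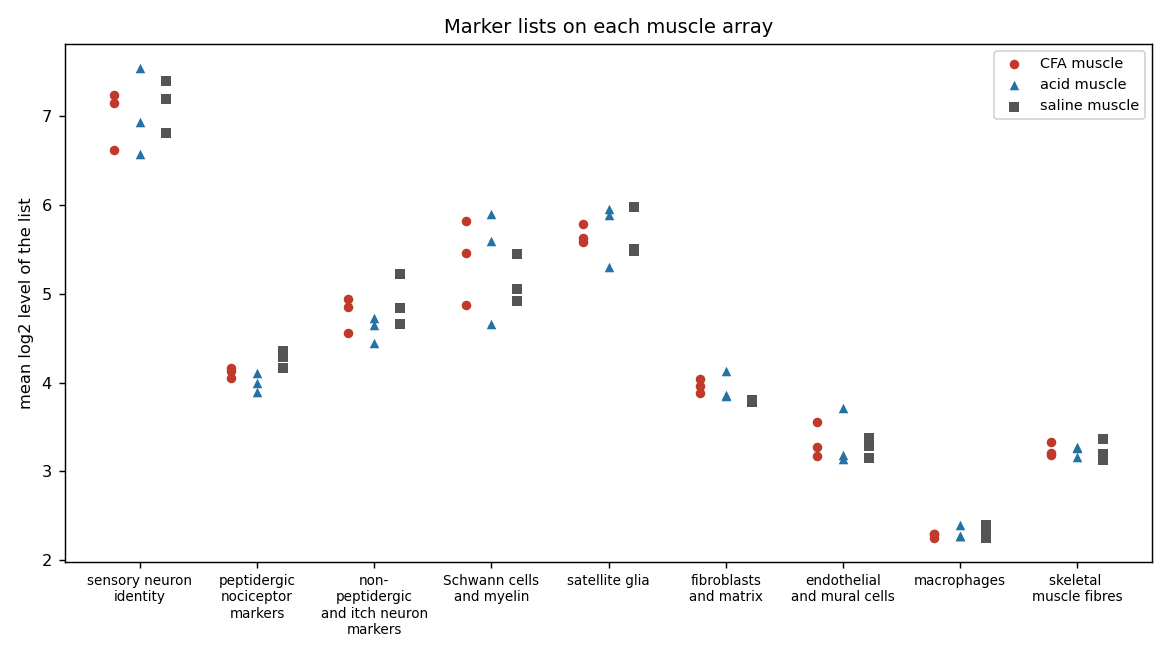
Mean log2 level of 9 marker lists (x axis) on each of the 9 muscle arrays, with red circles for CFA muscle, blue triangles for acid muscle and grey squares for saline muscle. The fibroblast list lies at 3.85 to 4.13 on treated arrays and 3.78 to 3.81 on saline arrays, the peptidergic list at 3.90 to 4.16 and 4.17 to 4.36, and the other lists overlap.

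The pooled comparison asked which genes differed from saline after either treatment. The 0 genes past an adjusted p of 0.05 (0% of those tested) came from limma with Benjamini-Hochberg adjustment, whose smallest adjusted p was 0.999. Without adjustment, 511 genes (2.56%) had p under 0.05, 282 higher (1.41%) and 229 lower (1.15%), where 997 would be so if no gene differed. The median standard error of a gene's pooled difference was 0.152, so a typical 95% interval reached 0.34 to each side. The differences themselves lay between −0.32 and 0.32 for the middle 95% of genes. CFA alone against saline and acid alone against saline also gave 0 genes each (0%), with 512 and 636 genes under an unadjusted p of 0.05. The 6 treated values lay all above the 3 saline values for 157 genes (0.787%) and all below them for 135 (0.677%). Of these 292 genes, 53 were predicted or cluster loci and 61 were dim in both conditions. Without both arrays that stood apart the counts of genes with no overlap were 1032 and 875, from 5 treated and 2 saline arrays. Groups with fewer arrays fail to overlap more often by chance alone. The rise from 157 and 135 is therefore not read as a stronger response, and none of these counts was tested against chance.

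Genes with a difference of at least 0.5 from saline after both treatments numbered 24 higher and 29 lower. As far up after CFA and down after acid were 2 genes, and 0 the other way round, and since both differences use the same saline arrays nothing is read from the gap between these counts. The first 2 counts moved with single arrays. The 24 became 54 without acid muscle replicate 2 and 116, 44 and 51 without saline muscle replicates 1, 2 and 3. The 29 became 18 without CFA muscle replicate 1, 48 without acid muscle replicate 3 and 74, 45 and 130 without saline muscle replicates 1, 2 and 3. Without both arrays that stood apart they were 59 and 94. Of the 53 genes, 6 higher and 7 lower ones had treated values that did not overlap saline, against 0.787% and 0.677% of all genes. A larger share is largely built in, since the 53 were picked for large differences from the same saline arrays. Predicted or cluster loci, counting small nucleolar RNAs, made up 3 of the higher and 4 of the lower genes. Under the dim limit in both conditions were 2 of the 53.

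**Figure D2:**
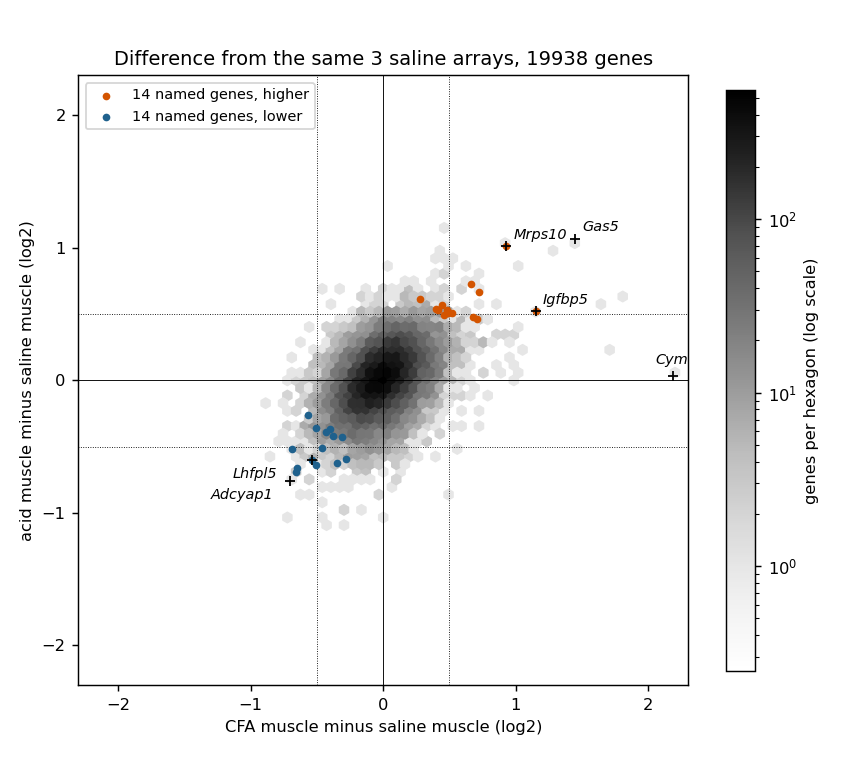
Difference from saline after CFA (x axis) and after acid (y axis), in log2 units, for 19938 genes as shaded hexagons (log scale), with the 14 named genes per direction in orange and blue and dotted lines at −0.5 and 0.5. Igfbp5 lies at 1.15 and 0.52, Gas5 at 1.45 and 1.07, and Cym at 2.19 and 0.03, and the axes share the 3 saline arrays.

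Sizes of 1 or more on the pooled scale were reached by 5 genes, and a size of 1 after each treatment by 1 gene, Gas5. Gas5 is a non-coding RNA whose introns hold small nucleolar RNAs, which guide the modification of ribosomal RNA. Its levels were 5.25, 6.67 and 6.78 after CFA, 5.29, 4.43 and 7.84 after acid and 4.58, 4.90 and 4.87 after saline. Acid muscle replicate 2 lay below all saline arrays while acid muscle replicate 3 was the highest, and the pooled difference of 1.26 had a 95% interval of −0.09 to 2.61. Another 3 of the 5 are small RNA genes, Snord82 (1.24), Snord33 (1.12) and Rny3 (1.14), and the fifth is Cym (1.11). Snord82 stood at 5.29, 6.12 and 6.10 after CFA, 4.67, 2.91 and 6.41 after acid and 3.36, 4.23 and 4.45 after saline, so acid muscle replicate 2 was again the lowest of the 9 arrays. Over all 54 small nucleolar and Cajal body RNA genes, 26 were higher in both treatments, 7 lower in both and 21 opposite, with a median difference of 0.10 against 0.004 over all genes. Their mean level was 2.69, 2.90 and 2.98 after CFA, 2.67, 2.72 and 2.98 after acid and 2.57, 2.62 and 2.68 after saline, so acid muscle replicate 1 lay within the saline range and CFA muscle replicate 1 just above it. In paw neurons after CFA the median of the same genes was −0.01. A mean above the dim limit was reached by 24 of the 54, of which 17 were higher in both treatments, 2 lower in both and 5 opposite. This group was put together after its values were seen.

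The genes named next are, in each direction, the 14 with the smallest p among genes above the dim limit in their treated or their saline mean whose treated and saline values did not overlap. They were picked on these values, so their separation is a description. The highest of them by size were Mrps10, a protein of the mitochondrial ribosome, and Igfbp5, a secreted protein that binds insulin-like growth factors. Igfbp5 stood at 4.84, 5.48 and 5.57 after CFA, 4.72, 4.83 and 4.48 after acid, and 4.43, 3.64 and 4.40 after saline. CFA muscle replicates 2 and 3 were the highest, the same pair on which Xist, Igf2 and Cym stood high. CFA muscle replicate 1, at 4.84, lay level with acid muscle replicate 2, at 4.83. Acid muscle replicate 3 lay just above the upper saline values. Its pooled difference was 0.83 (SE 0.215, 1.78-fold), made of 1.15 after CFA and 0.52 after acid. The adjusted p was 0.999 by limma with Benjamini-Hochberg adjustment, as for each gene named here in the pooled comparison. Mrps10 stood at 5.35, 4.50 and 5.10 after CFA, 5.38, 5.09 and 4.70 after acid, and 4.40, 4.47 and 3.28 after saline. The low saline muscle replicate 3 took part in its difference of 0.97 (SE 0.283), which was 0.58 without that array.

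**Figure D3:**
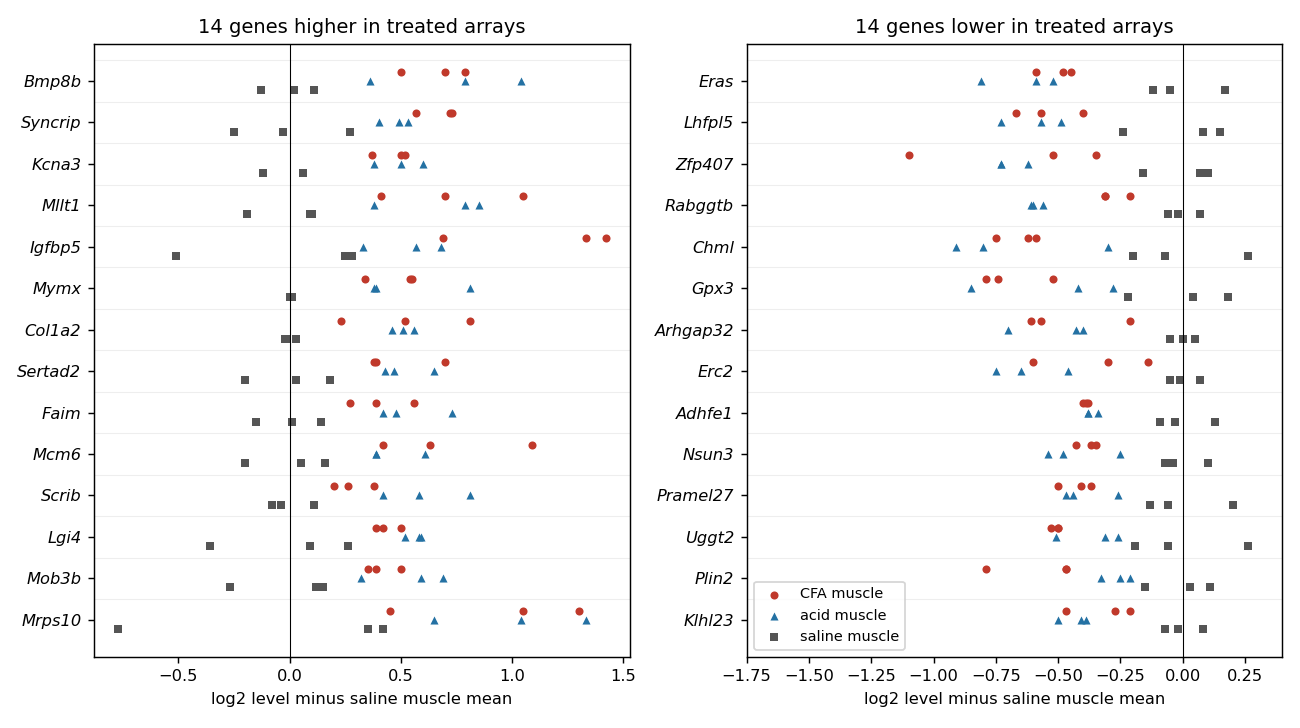
Log2 level of each array minus the saline muscle mean (x axis) for the 14 higher and 14 lower named genes, ordered by p, with red circles for CFA muscle, blue triangles for acid muscle and grey squares for saline muscle. The genes were chosen for treated values that do not overlap saline, and their pooled differences run from 0.45 to 0.97 and from −0.68 to −0.37, where Eras, Uggt2 and Klhl23 have treated means under the dim limit.

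Of the higher genes Bmp8b, a ligand of the bone morphogenetic protein family, had the smallest p. It stood at 3.56, 3.85 and 3.76 after CFA, 3.85, 4.10 and 3.42 after acid, and 3.17, 2.93 and 3.08 after saline. Both treatments lay apart from saline to a like extent, 0.66 for CFA and 0.73 for acid, and the pooled difference was 0.70 (SE 0.157, 1.62-fold). Kcna3, the voltage-gated potassium channel Kv1.3, stood at 3.83, 3.81 and 3.68 after CFA, 3.69, 3.91 and 3.81 after acid, and 3.37, 3.19 and 3.37 after saline. The treated arrays were tightly grouped, and the difference was 0.48 (SE 0.112). Lgi4, a secreted protein needed for myelination of peripheral nerve, had treated values of 3.14 to 3.34 and saline values of 3.01, 2.39 and 2.84. Its difference of 0.50 was 0.32 without saline muscle replicate 2, the lowest array.

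Col1a2, a chain of fibrillar collagen type I, stood at 5.52, 5.23 and 4.94 after CFA, 5.27, 5.22 and 5.17 after acid, and 4.74, 4.70 and 4.69 after saline. The saline arrays agreed closely and lay below every treated array, and the difference was 0.51 (SE 0.134). Collagen is made mainly by fibroblasts. In the same arrays 18 of 26 fibroblast genes were higher in both treatments, against 6558 of 19938 over all genes. Their mean level was 3.85 to 4.13 on treated and 3.78 to 3.81 on saline arrays. Col1a2 is among the 26 and was picked for not overlapping saline, so this small gap partly restates its own values. The part of fibroblasts in the Col1a2 value was not tested. Syncrip, an RNA-binding protein, was higher by 0.58, Mllt1, a chromatin reader, by 0.70, Mcm6, a subunit of the replicative helicase, by 0.58, and Sertad2, a transcriptional co-regulator, by 0.50. Mymx, a small protein of myoblast fusion, was higher by 0.50, Faim, an inhibitor of cell death, by 0.47, and Scrib, a polarity scaffold, by 0.45. Mob3b was higher by 0.47 by its brightest probe set and by 0.14 by its other one.

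Among the 14 lower genes, Lhfpl5 bears most directly on mechanosensation, since its protein is a part of the transduction complex of inner ear hair cells. It stood at 4.14, 4.04 and 4.31 after CFA, 4.14, 4.22 and 3.98 after acid, and 4.47, 4.79 and 4.86 after saline. CFA and acid arrays covered overlapping ranges and all lay under saline muscle replicate 1, the lowest saline array. The difference was −0.57 (SE 0.131, 95% interval −0.86 to −0.28), a level 1.48-fold lower, and it stayed between −0.69 and −0.49 as any 1 array was left out. Erc2, a scaffold of the presynaptic active zone, stood at 4.25, 4.71 and 4.55 after CFA, 4.10, 4.20 and 4.39 after acid, and 4.92, 4.84 and 4.80 after saline. Its difference was −0.35 after CFA and −0.62 after acid, and CFA muscle replicate 2 lay close to the saline arrays.

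A pair of genes of 1 lipid modification was also in this group, as was seen after their values were known. Chml, an escort protein that presents Rab GTPases for the addition of a geranylgeranyl lipid, stood at 2.97, 3.10 and 3.13 after CFA, 2.92, 3.42 and 2.81 after acid, and 3.65, 3.52 and 3.98 after saline. Rabggtb, the catalytic subunit of the enzyme that adds this lipid, stood at 2.92, 3.02 and 2.92 after CFA, 2.67, 2.62 and 2.63 after acid, and 3.30, 3.17 and 3.21 after saline. Chml differed by −0.66 (SE 0.161) and Rabggtb by −0.43 (SE 0.104), and for Rabggtb the acid arrays lay below all the CFA arrays. Gpx3, an extracellular glutathione peroxidase, stood at 3.75 to 4.32 on treated and 4.38 to 4.78 on saline arrays, a difference of −0.60. Plin2, a lipid droplet coat protein, differed by −0.42 and Nsun3, a methyltransferase of mitochondrial transfer RNA, by −0.40.

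The other lower genes were Zfp407, a zinc finger protein (−0.68, and −0.26 by its other probe set), Arhgap32, a GTPase-activating protein (−0.49), Adhfe1, a mitochondrial dehydrogenase (−0.38) and Pramel27 (−0.41). Eras, a Ras protein of embryonic stem cells, Uggt2, a folding sensor of the endoplasmic reticulum, and Klhl23 passed the dim limit of 2.49 only in saline, so the size of their differences is uncertain. Their means were 2.24, 2.37 and 2.40 on treated arrays and 2.82, 2.80 and 2.77 on saline arrays. Of the 14 higher genes, 7 were also higher in paw neurons after CFA, and of the 14 lower genes, 6 were also lower there. Across all genes the pooled muscle difference and the CFA paw difference, which share no array, had a Pearson correlation of −0.11 and a Spearman correlation of −0.11, over genes that are not independent of each other.

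The upstream sequences of these genes were searched for letters bound by factors of inflammatory and activity-dependent transcription, and for the TATA letters of the core promoter. RefSeq promoters of the mouse build GRCm38.p6 were at hand for 15614 of the genes tested, 11 of the 14 higher and 12 of the 14 lower genes, and the 250 bases before each start were read on both strands. The AP-1 letters TGANTCA were in 7.12% of all genes, 0 of the 11 higher and 1 of the 12 lower. The cyclic AMP response element TGACGTCA was in 2.33%, 0 and 0. The kappaB motif was in 5.05%, 1 of 11 and 1 of 12, the CArG box of serum response factor in 1.45%, 0 and 0, and the TATA letters TATAAA, which can overlap a CArG box, in 12.5%, 0 and 2. A match is a string of letters and not a bound site. The sequences of 4 genes on which the values above turn are shown, Igfbp5 (chr1:72874866-72875115, minus strand), Bmp8b (chr4:123104911-123105160, plus strand), Lhfpl5 (chr17:28575469-28575718, plus strand) and Erc2 (chr14:27622157-27622406, plus strand). Capitals mark a kappaB match that starts 196 bases before the Igfbp5 start and an AP-1 match that starts 51 bases before the Erc2 start, and the other sequences held none of the motifs.
Igfbp5: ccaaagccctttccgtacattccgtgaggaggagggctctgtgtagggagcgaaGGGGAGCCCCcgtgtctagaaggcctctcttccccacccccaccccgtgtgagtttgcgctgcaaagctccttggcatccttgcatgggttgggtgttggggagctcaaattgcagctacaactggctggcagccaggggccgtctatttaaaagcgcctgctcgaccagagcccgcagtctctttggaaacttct
Bmp8b: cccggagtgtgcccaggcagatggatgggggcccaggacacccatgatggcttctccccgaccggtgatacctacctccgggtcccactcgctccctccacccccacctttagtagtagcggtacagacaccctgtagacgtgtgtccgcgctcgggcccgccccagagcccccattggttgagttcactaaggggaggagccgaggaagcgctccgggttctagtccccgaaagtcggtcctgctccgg
Lhfpl5: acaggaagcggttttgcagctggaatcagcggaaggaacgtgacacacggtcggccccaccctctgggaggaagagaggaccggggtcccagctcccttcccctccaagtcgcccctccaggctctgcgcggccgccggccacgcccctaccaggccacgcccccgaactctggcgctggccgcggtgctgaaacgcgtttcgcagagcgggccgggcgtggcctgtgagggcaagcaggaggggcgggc
Erc2: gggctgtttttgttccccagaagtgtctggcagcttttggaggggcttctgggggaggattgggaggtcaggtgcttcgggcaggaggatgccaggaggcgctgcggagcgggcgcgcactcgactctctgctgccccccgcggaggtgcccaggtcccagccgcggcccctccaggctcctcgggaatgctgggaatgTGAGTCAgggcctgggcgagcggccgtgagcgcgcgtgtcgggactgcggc

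Mechanosensitive channels and their partners were the genes of the study's question. Of 35 measured, 0 passed the adjusted threshold, as in each of the 36 gene lists described here, while 9 were higher in both treatments, 12 lower in both and 14 opposite, with a median of −0.034 against 0.004 over all genes. Piezo2, the main channel of touch and proprioception, stood at 6.35, 7.29 and 7.33 after CFA, 6.48, 6.93 and 6.89 after acid, and 7.30, 7.32 and 6.47 after saline. The groups overlapped fully, the difference was −0.15 (95% interval −0.72 to 0.42), and 2 other probe sets of the gene gave −0.31 and −0.10. Piezo1 differed by −0.29 (95% interval −0.77 to 0.19), and its 2 dimmer probe sets gave −0.02 and 0.43. Stoml3, a modulator of touch channels, differed by −0.01, and the mechano-gated potassium channels Kcnk2, Kcnk4 and Kcnk10 by 0.18, 0.08 and −0.18. Stoml2, a mitochondrial relative of Stoml3, was the only member whose treated arrays all lay below saline, as those of 0.677% of all genes did. It lay at 3.59 to 4.59 against 4.65 to 4.99, a difference of −0.50.

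Among channels that sense acid and heat, Trpv1, the capsaicin receptor, had the smallest p. It stood at 4.15, 4.67 and 4.61 after CFA, 4.54, 4.64 and 3.97 after acid, and 4.97, 5.40 and 4.60 after saline. The treated arrays were mostly lower but overlapped saline muscle replicate 3, and the difference was −0.56 (95% interval −1.02 to −0.09). It was −0.35 without saline muscle replicate 2. Asic3, the acid-gated channel most tied to muscle pain, stood at 4.34, 4.12 and 4.53 after CFA, 4.65, 4.98 and 5.62 after acid, and 5.47, 4.81 and 4.95 after saline. Its CFA arrays were all below both other groups, and it differed by −0.74 after CFA and by 0.01 after acid. Asic1, Asic2, Trpa1 and Trpv4 differed by 0.05, −0.33, −0.08 and 0.04 in the pooled comparison, each with an interval that held 0.

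**Figure D4:**
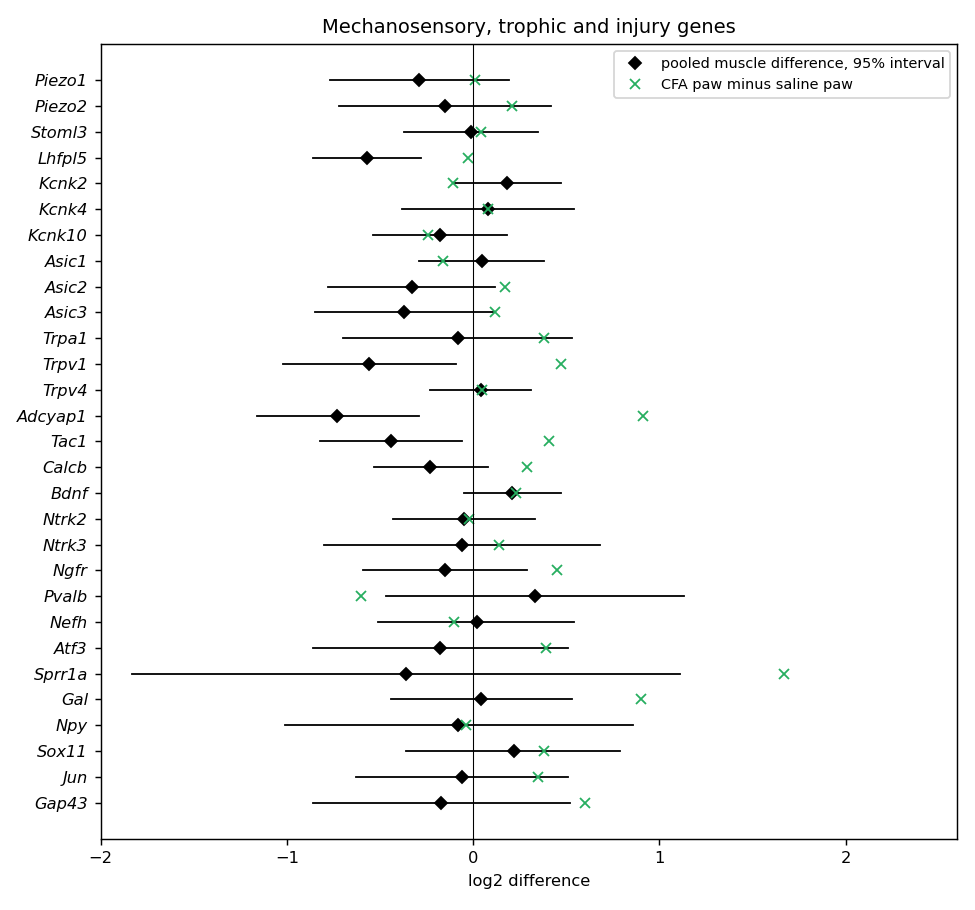
Pooled muscle difference (black diamonds, log2) with its 95% interval from the limma fit for 29 mechanosensory, peptide, trophic and injury genes (y axis), beside the CFA minus saline difference in paw neurons (green crosses, no interval drawn). Adcyap1 lies at −0.73 in muscle and 0.91 in paw, and Piezo2 at −0.15 and 0.21.

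Markers of pain-sensing neurons had more lower than higher members, and none passed the adjusted threshold. Of 14 peptidergic nociceptor genes, 0 were higher in both treatments, 9 lower in both and 5 opposite, with a median of −0.189. Over all 19938 genes, 6558 were higher in both and 6395 lower in both, with a median of 0.004. By limma without adjustment, 3 of the 14 were lower at p under 0.05, against 1.15% of all genes. The same held for 3 of the 21 non-peptidergic and itch genes described below. Lists not tied to pain-sensing neurons also had more lower than higher members. Of 13 sensory neuron identity genes, 1 was higher in both treatments and 8 lower in both, with a median of −0.092. Of 26 synaptic vesicle genes, 1 was higher and 13 lower in both, with a median of −0.060. Adcyap1, which encodes the peptide PACAP, stood at 3.65, 4.34 and 3.73 after CFA, 3.83, 3.82 and 3.87 after acid, and 5.03, 4.23 and 4.55 after saline. Only CFA muscle replicate 2 reached the saline range, and the differences were −0.70 after CFA and −0.76 after acid, −0.73 pooled (SE 0.197, 95% interval −1.16 to −0.29). Adcyap1 is on the injury list too. The pooled value ran from −0.92 to −0.51 as single arrays were left out. Tac1, which encodes substance P, stood at 5.54, 5.72 and 5.58 after CFA, 5.70, 5.32 and 5.14 after acid, and 6.34, 5.79 and 5.70 after saline, a difference of −0.44 with groups that met at the edge. It was −0.24 without saline muscle replicate 1. Calcb differed by −0.23 with an interval of −0.53 to 0.08. The neurons were sorted against CGRP, so what these levels owe to carried-over CGRP-positive cells was not tested.

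Genes of non-peptidergic and itch neurons gave a like count. Of 21 measured, 1 was higher in both treatments, 12 lower in both and 8 opposite, with a median of −0.203. Il31ra, a receptor chain for the itch cytokine interleukin-31, stood at 4.64, 4.86 and 4.93 after CFA, 3.95, 4.48 and 3.45 after acid, and 4.65, 5.61 and 4.64 after saline. Its acid arrays were the lowest and its CFA arrays lay within the saline range, with means of 3.96 after acid, 4.81 after CFA and 4.97 after saline. The pooled difference of Il31ra, −0.58, was −0.26 without saline muscle replicate 2. Osmr, its partner chain, differed by −0.67 after acid and −0.18 after CFA, and Mrgprb5, a Mas-related receptor, by −0.54 and −0.59. Both medians kept their sign without each array, at −0.078 to −0.260 for the peptidergic and −0.086 to −0.385 for the non-peptidergic list over all alternatives run. In both lists the value nearest 0 came from leaving out saline muscle replicate 2, and −0.385 from leaving out saline muscle replicate 3. The list level of the first lay at 3.90 to 4.16 on treated and 4.17 to 4.36 on saline arrays, and that of the second overlapped, at 4.45 to 4.94 and 4.66 to 5.22.

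Genes of nerve injury and regeneration had more lower than higher members. Of 40 measured, 8 were higher in both treatments, 18 lower in both and 14 opposite, with a median of −0.083. Atf3, the transcription factor most used as a sign of axon damage, stood at 6.12, 5.94 and 6.48 after CFA, 6.64, 5.79 and 5.80 after acid, and 6.85, 6.65 and 5.41 after saline. The level of Atf3 was as high after saline as after either treatment, and its difference was −0.18 (95% interval −0.86 to 0.51). Sprr1a, a gene of axon regrowth, ranged from 4.12 to 7.19 on treated and from 5.71 to 6.95 on saline arrays, and its interval of −1.83 to 1.11 was the widest of the genes described. Gal, Npy, Sox11, Jun and Gap43 differed by 0.04, −0.08, 0.22, −0.06 and −0.17. Tnfrsf12a, a receptor induced in growing axons, was the only member whose treated arrays all lay above saline. It lay at 3.79 to 4.09 against 3.38 to 3.74, a difference of 0.36. Another member, 1 of the 40, had treated arrays all below saline. Over all genes, 0.787% lay wholly above saline and 0.677% wholly below. Of the trophic receptors, Ntrk2, Ntrk3 and Ngfr differed by −0.05, −0.06 and −0.15, and Bdnf by 0.21.

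Channels of excitability were described in the same way. Of 14 sodium channel genes 0 were higher in both treatments and 7 lower in both, with a median of −0.151. That median was −0.018 without saline muscle replicate 2 and −0.363 without saline muscle replicate 3. Scn1a, a channel of large fast-firing neurons, differed by −0.44. Its value was −0.17 without saline muscle replicate 1 and −0.67 without saline muscle replicate 3. Of 50 potassium channel genes 13 were higher and 21 lower in both, with Kcna3 above saline as described. Kcnj11, the pore subunit of the ATP-sensitive potassium channel, differed by −0.30, and by −0.18 without saline muscle replicate 3. Cacna1c, the main L-type calcium channel, stood at 4.14, 4.48 and 4.79 after CFA, 4.61, 4.03 and 4.68 after acid, and 4.97, 5.12 and 4.90 after saline. All treated arrays of Cacna1c lay below saline, by −0.53 after CFA and −0.56 after acid. P2ry2, a receptor for extracellular ATP, had treated values of 3.01 to 3.43 and saline values of 2.70 to 2.93, a difference of 0.33. Isl1, a transcription factor of sensory neuron identity, lay at 5.36 to 5.95 on treated and 5.97 to 6.19 on saline arrays, a difference of −0.39.

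Of 17 Schwann cell and myelin genes, 13 were higher in both treatments and 2 lower in both, with a median of 0.299, the highest of the 36 lists. That median was 0.156 without CFA muscle replicate 1 and 0.502 without acid muscle replicate 2. Mag, a myelin glycoprotein, stood at 3.47, 3.50 and 3.01 after CFA, 3.72, 3.07 and 3.46 after acid, and 3.01, 2.72 and 3.14 after saline, a difference of 0.41. The groups overlapped, and the list level was 4.88 to 5.82 after CFA, 4.66 to 5.90 after acid and 4.92 to 5.45 after saline. Of 26 fibroblast and matrix genes, 18 were higher in both treatments and 3 lower in both, with a median of 0.119, or 0.187 without both arrays that stood apart. Of 14 satellite glia genes 5 were higher and 6 lower in both, with a median of 0.064 that was −0.077 without saline muscle replicate 3. Mfap5, a microfibril protein of the fibroblast list, ranged widely, at 4.88, 3.88 and 2.35 after CFA, 4.94, 2.54 and 3.24 after acid, and 2.95, 3.07 and 2.12 after saline, so CFA muscle replicate 1 and acid muscle replicate 1 carried its difference of 0.93. Without acid muscle replicate 1 it was 0.58. Of 61 ribosomal protein genes, 36 were higher and 6 lower in both, with a median of 0.141, although their probe sets can share sequence with processed copies. That median was 0.028 without acid muscle replicate 3 and 0.270 without acid muscle replicate 2.

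Immune and muscle genes had medians near that of all genes. Of 24 macrophage genes 16 were dim, the median was −0.041, and the list level was 2.25 to 2.40 on treated and saline arrays alike. Of 36 cytokines, chemokines and inflammatory enzymes 17 were dim and the median was 0.053. The median of 20 skeletal muscle fibre genes was 0.013, and that of 31 interferon response genes 0.031.

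**Figure D5:**
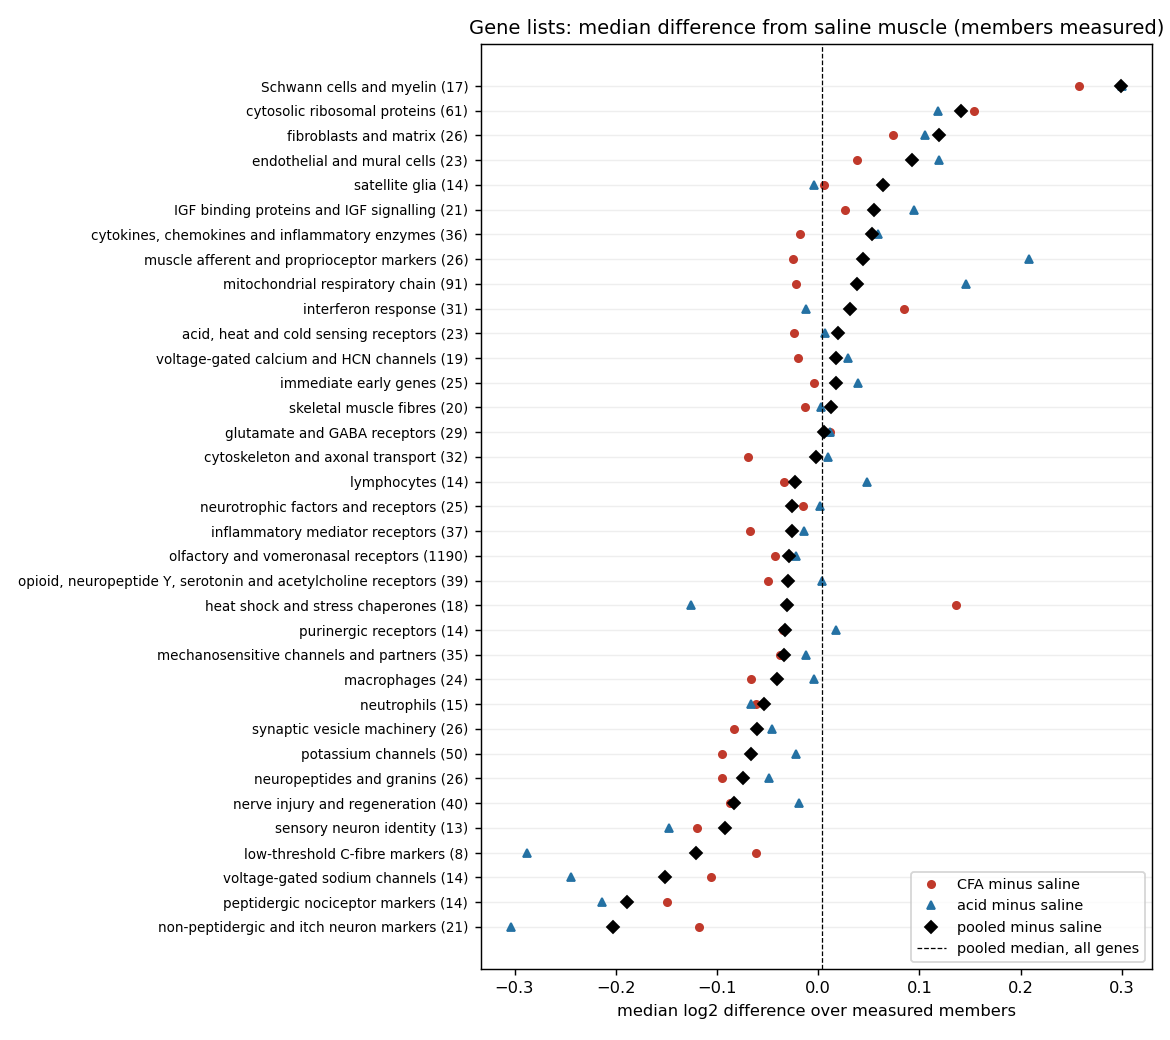
Median log2 difference from saline muscle over the measured members of 35 gene lists (y axis, members measured in brackets), pooled (black diamonds), after CFA (red circles) and after acid (blue triangles). The dashed line is the pooled median of all genes, 0.004, and the lists run from −0.203 for non-peptidergic and itch neuron markers to 0.299 for Schwann cells and myelin.

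The direct comparison of CFA with acid, which does not use the saline arrays, gave 0 genes past an adjusted p of 0.05 (0%) by limma with Benjamini-Hochberg adjustment, with 693 under an unadjusted p of 0.05. Among the genes named, Gbp7, an interferon-induced GTPase, had the smallest p. It stood at 4.28, 4.73 and 4.41 after CFA, 3.85, 3.77 and 3.35 after acid, and 4.39, 4.39 and 4.38 after saline. The acid arrays were below both other groups, and CFA minus acid was 0.81 (SE 0.170). Th, the enzyme of dopamine synthesis and a marker of low-threshold C fibres, stood at 6.08, 6.12 and 6.26 after CFA and 5.75, 5.09 and 5.16 after acid, a difference of 0.82 (SE 0.250). Necab2, a calcium-binding protein, and Nr4a3, an activity-induced nuclear receptor, differed by −0.44 and −0.40. The adjusted p of each was 0.998. Without CFA muscle replicate 1, 1 gene passed, Xist, in CFA minus acid (adjusted p = 0.047 by limma with Benjamini-Hochberg adjustment) and in CFA minus saline (0.035). Its acid and saline arrays were all under the dim limit, so no size is given.

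The muscle response was set against that of CGRP-positive paw neurons to CFA by the difference of the 2 responses in a fit of all 15 arrays. It gave 0 genes past the adjusted threshold (0%) and 339 under an unadjusted p of 0.05, with a median standard error of 0.246. Among the genes named, Adcyap1 had the smallest p, and it was first of all 19938 genes by p. Its difference was −0.73 in treated muscle neurons and 0.91 in CFA paw neurons, and the difference of the responses was −1.64 (SE 0.355), with an adjusted p of 1.00 by limma with Benjamini-Hochberg adjustment. Igfbp5 was higher by 0.83 in muscle and differed by −0.25 in paw, a difference of 1.08 (SE 0.305). Ptges, a prostaglandin synthase, and Nsun3 differed between the responses by 0.65 and −0.90. Trpv1 and Tac1 also had opposite signs, at −0.56 and −0.44 in muscle and 0.47 and 0.41 in paw. The site of injection, the target tissue and the CGRP status of the neurons all differ between these responses and cannot be told apart.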

How the data were processed

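RNA of sorted sensory neurons was measured on 15 Affymetrix arrays in 5 groups of 3. Probe set levels were deposited on a log2 scale, made by the authors with RMA and Partek per the submitters' processing notes, with no version given. The log base is not stated there and was taken from the range of the values. All columns were matched to samples by their titles. Of 35556 probe sets, 21789 have 1 gene symbol in the platform's probe table, 1621 several and 12146 none, and 21698 gene identifiers matched the reference gene table. For 999 genes with more than 1 probe set the brightest one over the 15 arrays stood for the gene, leaving 19938 genes.

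A linear model with 3 group means (6 residual and 4.71 prior degrees of freedom) was fitted to the 9 muscle arrays with limma 3.58.1 in R 4.3.3. The pooled contrast was the mean of CFA and acid minus saline, and the difference from the paw response came from a fit of all 15 arrays. Tests were two-sided with Benjamini-Hochberg adjustment over all genes and a threshold of 0.05, and were tested on simulated data. The p-values set each difference against the spread between arrays of a group, which limma draws toward a prior value. Whether that spread is between single animals or pools is not given, and the number of arrays limits the precision. A fold is 2 to the power of a log2 difference.

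Genes were named by rule: per direction the 14 smallest p among genes of the same sign in both treatments, over the dim limit, with no overlap and without predicted or cluster loci, then up to 4 members of the smallest p per list and a set of 29 genes, of which 27 were measured. For the other comparisons the 4 smallest p among these were named. The 36 lists (759 genes in the hand-written ones), their members and this rule were chosen with earlier results of these data known. Alternatives covered scaling, fit, dim genes, weights, probe sets, threshold, replicate block and single arrays left out. The labels do not say whether same-numbered arrays share a day or an animal, and the main fit used no block. Deviations of same-numbered arrays correlated at −0.23 to 0.25, and 3 of 9 arrays correlated best with their own number. With so few arrays these values cannot exclude a pairing.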

Additional observations from a re-analysis of the deposited data

Results flagged for a closer look

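In 16 of 169 named genes, 1 of the 6 treated muscle arrays lay far from the other 5 by Dixon's test, which chance does in about 1 of 20 groups. Acid muscle replicate 2, one of the arrays that stood apart, was the distant array for Trpa1 (2.74), Stat3 (5.45), Sox2 (3.32), Alas2 (2.91), Rps18 (5.67) and Cox8b (2.94). CFA muscle replicate 1 was it for Mcm6 (3.75), Scn1a (4.14) and Lcn2 (2.57), and CFA muscle replicate 2 for Adcyap1 (4.34). CFA muscle replicate 3 was it for Ifnar1 (5.45), Esrrg (4.53), Zfp521 (4.15) and Myl1 (2.01), acid muscle replicate 1 for Slc4a1 (2.93), and acid muscle replicate 3 for Bdnf (3.81).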

How the results depend on the processing

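The count of genes past the threshold was 0 in the pooled comparison under every alternative run, with the replicate block (0 genes), all probe sets (0 genes, added after seeing the data) and each array left out. Of 112 such counts over all comparisons 2 were above 0. With single arrays left out, CFA minus saline and CFA minus acid gave 0 to 1 genes, the 1 gene being Xist, and acid minus saline and muscle minus paw gave 0. Under the same omissions, both differences at least 0.5 held for 16 to 116 genes and at most −0.5 for 18 to 130, treated arrays were all above saline for 221 to 848 and all below for 189 to 647, and signs were the same for 12254 to 14292. Without both arrays that stood apart, an alternative added after seeing the data, the 2 size counts were 59 and 94. The counts all above and all below saline were then 1032 and 875, from fewer arrays. Such counts rise by chance as arrays are left out, so they cannot be compared directly with those of the main fit. A size limit of 0.3 gave 271 and 284 genes and a limit of 1 gave 1 and 0. Of 26 other fixed genes 18 changed sign under some alternative. Of 115 list genes, chosen by small p, 4 did, and the sign of the 28 genes chosen for groups that do not overlap is largely fixed by that choice. Of 35 list medians 23 changed sign under some alternative. Only 3 arrays per group and dim probe sets limit what could be seen.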

Other observations

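Other genes that were at least 0.5 lower after both treatments, chosen after their values were seen, include 2 that steer axons and synapses. Slit1, an axon guidance ligand, stood at 4.23, 4.63 and 5.18 after CFA, 4.29, 4.91 and 5.00 after acid and 5.36, 5.41 and 5.09 after saline, a difference of −0.58 (SE 0.218), with groups that met at the edge. Iqsec3, an exchange factor of inhibitory synapses, stood at 3.54, 4.04 and 4.05, then 3.91, 3.55 and 4.46, and 4.44, 4.35 and 4.68 in the same order, a difference of −0.56. Fkbp1b, a binding partner of ryanodine receptors, differed by −0.54.

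Of the 24 genes at least 0.5 higher after both treatments, 4 picked after their values were seen are described, and none passed the adjusted threshold. Eif3m, a subunit of a translation initiation factor, stood at 4.80, 5.50 and 5.44 after CFA, 5.17, 4.30 and 5.45 after acid and 4.76, 4.42 and 3.95 after saline, a difference of 0.74 (SE 0.270). Acid muscle replicate 2 lay within the saline range. Lamtor4, a part of the lysosomal Ragulator complex, stood at 4.87 to 5.50 on treated and 4.08 to 4.90 on saline arrays, a difference of 0.68 (SE 0.193). Psmb3, a proteasome subunit, differed by 0.64 and Cops3, a COP9 signalosome subunit, by 0.59, each with an interval that held 0.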
